A study of Mus musculus with 2 samples.

Results

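Promoter peaks of TCF12 that hold a main E-box numbered 1166 of 8085 promoter peaks, a background share of 14.4% (95% Wilson interval 13.7 to 15.2), in a list of 23572 peaks on mm9 chromosomes 1 to 19 and X. A peak was counted as a promoter peak when its summit lay within 1 kb of the annotated 5′ end of a protein-coding gene. It held a main E-box when CAGCTG or CACCTG, the second also as CAGGTG on the other strand, lay wholly within 50 bp of the summit. DNA bound by TCF12 was pulled down with an antibody and sequenced (ChIP-seq) in CH12.LX, an immortalised line from a mouse B-cell lymphoma, strain B10.H-2aH-4bp/Wts. The study held 2 biological replicates of 1 group, with no treatment named in the labels, so every comparison sets peaks against other peaks and no test over samples was possible. The mm9 list combined both replicates, and replicate values came from the mm10 lists. Intervals in parentheses are at the 95% level, cover counting error only and treat neighbouring peaks as independent.

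TCF12, also named HEB, belongs to the E proteins, helix-loop-helix factors that pair with each other or with tissue-restricted partners and touch DNA at E-boxes, hexamers of the form CANNTG. In lymphocytes, E proteins are known for driving B cell identity genes and antigen receptor genes, largely from enhancers away from gene starts. Many gene starts lie in stretches rich in the dinucleotide CpG and carry sites for ETS, NRF1, YY1 and other factors, while promoters poor in CpG are more often those of tissue-restricted genes.

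The strongest members show the sequences at issue. Below are the summit windows of the 8 members that follow the strongest one in signal, on the strand of the gene, from the mm9 build, with main E-boxes in capitals and annotated untranslated exons trimmed away.
Gm7873 (chr16:18218873-18218973, + strand): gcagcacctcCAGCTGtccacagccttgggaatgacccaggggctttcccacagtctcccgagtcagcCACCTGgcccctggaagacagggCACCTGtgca
Psmc3ip (chr11:100957232-100957332, - strand): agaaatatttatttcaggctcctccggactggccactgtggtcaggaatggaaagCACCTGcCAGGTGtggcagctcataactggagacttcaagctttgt
Fam129c (chr8:74121470-74121546, + strand): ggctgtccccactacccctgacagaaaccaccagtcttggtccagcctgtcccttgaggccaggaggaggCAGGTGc
Dmpk (chr7:19669866-19669966, + strand): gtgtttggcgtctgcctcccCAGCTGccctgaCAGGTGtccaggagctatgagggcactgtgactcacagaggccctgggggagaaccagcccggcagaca
Lrp6 (chr6:134517260-134517360, - strand): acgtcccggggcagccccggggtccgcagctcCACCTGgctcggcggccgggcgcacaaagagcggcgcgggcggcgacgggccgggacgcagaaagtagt
Atad1 (chr19:32787244-32787344, - strand): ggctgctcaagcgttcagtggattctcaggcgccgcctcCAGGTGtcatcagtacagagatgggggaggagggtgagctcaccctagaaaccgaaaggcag
Wnt10a (chr1:74837870-74837970, + strand): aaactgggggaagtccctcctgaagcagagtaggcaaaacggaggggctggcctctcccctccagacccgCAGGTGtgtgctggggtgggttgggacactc
Rinl (chr7:29574025-29574101, + strand): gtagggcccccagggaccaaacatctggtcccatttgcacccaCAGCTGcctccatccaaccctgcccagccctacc
Gm7873 (RefSeq Ccdc188) carried 1 CAGCTG and 2 CACCTG, Psmc3ip carried CACCTG and CAGGTG 1 bp apart, and Dmpk carried CAGCTG and CAGGTG 6 bp apart. The other 5 windows held a single main E-box. The E-boxes of Dmpk and Rinl lay in introns of those genes, that of Fam129c (RefSeq Niban3) lay upstream of its own gene in an intron of Pgls, that of Gm7873 nearest to the summit lay in an exon, and those of Psmc3ip, Lrp6, Atad1 and Wnt10a lay outside protein-coding genes. Shorter contexts of 30 bases show members at immune genes, at the mismatch repair gene Msh6, at the DNA polymerase gene Pold1 and at the histone methyltransferase gene Ehmt1, none of them within an untranslated exon.
Tlr9 (chr9:106124872-106124901, + strand): gactcattgtacCACCTGctctttcagggt
Cd80 (chr16:38458867-38458896, + strand): agctttttcaccCAGCTGtgctcacccggt
Il4 (chr11:53432550-53432579, - strand): agcagctaggccCAGGTGtgctcaaggcag
Msh6 (chr17:88374088-88374117, + strand): cgcccgcagggcCAGGTGtttccgcagcga
Pold1 (chr7:51803320-51803349, - strand): caggggaggagcCAGGTGtgaagctggcag
Ehmt1 (chr2:24775250-24775279, - strand): gcgcgcaggcgcCACCTGgcctcgcctcca
Cd79a (chr7:25682350-25682379, + strand): ttgtggccagccCAGGTGcagggcagttcc
Pou2af1 (chr9:51021290-51021319, + strand): ttgaagagagggCAGGTGtttcctcccatg
Spib (chr7:51787917-51787946, - strand): ctggtggccaccCAGCTGgcattaggtgct

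Over all promoter peaks, CAGCTG was more frequent at the summit than in the flanks, while CACCTG was not. CAGCTG was found in 7.48% of the 101-bp summit windows and in 4.42% of windows centred 300 bp to either side, a ratio of 1.69 (1.52 to 1.88). CACCTG was found in 7.59% of summit windows and 7.66% of flanks, a ratio of 0.991 (0.903 to 1.09). Away from promoters both hexamers were enriched, CAGCTG 3.69-fold (3.48 to 3.90) and CACCTG 3.33-fold (3.17 to 3.49), and 39.6% of those 15487 peaks held a main E-box. The excess at promoter summits was not limited to main E-boxes. CACGTG, which is not a main E-box, was found in 4.997% of promoter summit windows and 2.202% of flanks. That ratio of 2.27 was above the 1.69 of CAGCTG. Away from promoters the ratio of CACGTG was 1.96, below those of both main E-boxes. Windows of the same length on all 22350 protein-coding 5′ ends, peak or no peak, held a main E-box in 12.8% (12.3 to 13.2), and 11.7% of the flanks of promoter peaks did.

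**Figure D1:**
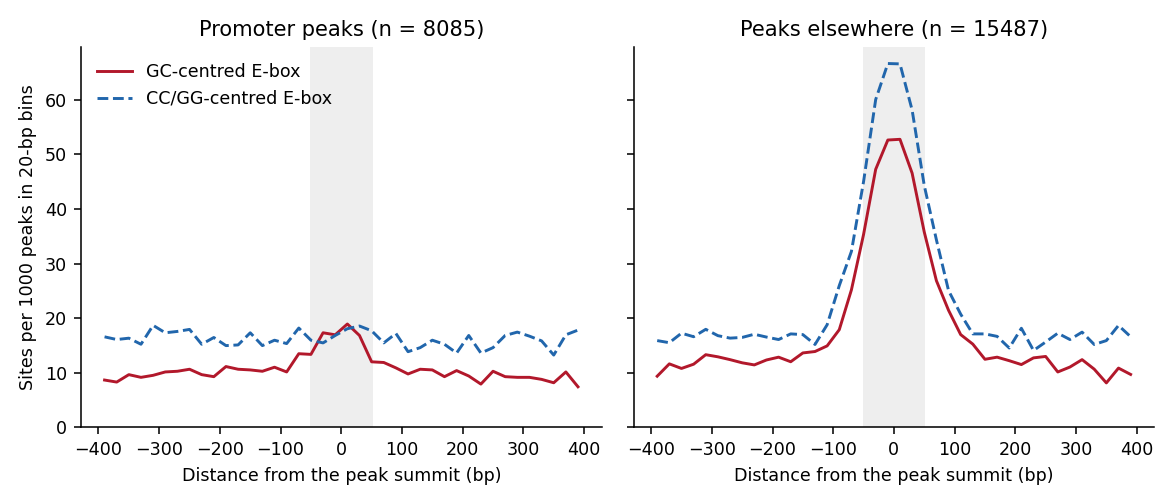
Sites per 1000 peaks in bins of 20 bp against the distance from the summit in bp, for promoter peaks on the left and peaks elsewhere on the right, with the window of 50 bp to either side shaded. The solid line is CAGCTG, named GC-centred. The dashed line is CACCTG on either strand, named CC/GG-centred. In promoters only the solid line has a hump at the summit, while both do elsewhere.

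Members and other promoter peaks differed in base composition. A peak was called CpG-poor when the CpG observed over expected ratio within 250 bp to either side of the summit was under 0.6, which was so for 16.6% of all promoter peaks. Of the members 371 (31.8%) were CpG-poor, against 14.1% of promoter peaks without a main E-box, a difference of 17.8 percentage points (Newcombe interval 15.01 to 20.6). The median ratio was 0.728 in members and 0.825 in promoter peaks without, and 0.217 in peaks elsewhere with a main E-box. GC content was close by comparison, with medians of 61.8% and 62.9% over the same bases in members and promoter peaks without. The main E-boxes contain no CpG themselves.

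At CpG-poor promoters both hexamers were enriched at the summit. CAGCTG was 2.52-fold (2.04 to 3.12) and CACCTG 2.02-fold (1.70 to 2.40) above the flanks there. At CpG-rich promoters CAGCTG was 1.49-fold above the flanks (1.32 to 1.69), while CACCTG was below them, at 0.766 (0.684 to 0.857). Flank shares themselves moved little, with CACCTG in 8.30% of flanks of CpG-poor and 7.54% of flanks of CpG-rich promoter peaks. These ratios count every CACCTG alike, though flank sites and member sites differed in their adjoining bases, as given below. Away from promoters, the 1296 CpG-rich peaks had ratios of 1.65 for CAGCTG (1.27 to 2.13) and 1.39 for CACCTG (1.12 to 1.73), both lower than in the CpG-poor peaks there.

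Distance to the gene start gave a similar gradient. Members sat farther from the 5′ end than promoter peaks without a main E-box, with a median of 116.5 bp (100 to 133) against 72 bp (69 to 74). Within 100 bp lay 47.3% of members and 59.7% of promoter peaks without, a difference of -12.5 points (-15.6 to -9.38), which was -7.55 points when averaged within 5 equal groups by CpG ratio. Over 500 bp away lay 18.5% of members and 9.09% of promoter peaks without. Read the other way, 25.6% of peaks over 500 bp from the 5′ end held a main E-box, against 11.8% within 100 bp, a difference of 13.8 points (10.8 to 17.0). CACCTG carried most of that gradient: at summits within 100 bp of the 5′ end its ratio over the flanks was 0.634 (0.551 to 0.730), and beyond 500 bp it was 2.70 (2.15 to 3.38). CAGCTG had 1.55 (1.35 to 1.78) and 1.69 (1.28 to 2.24) in the same zones.

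**Figure D2:**
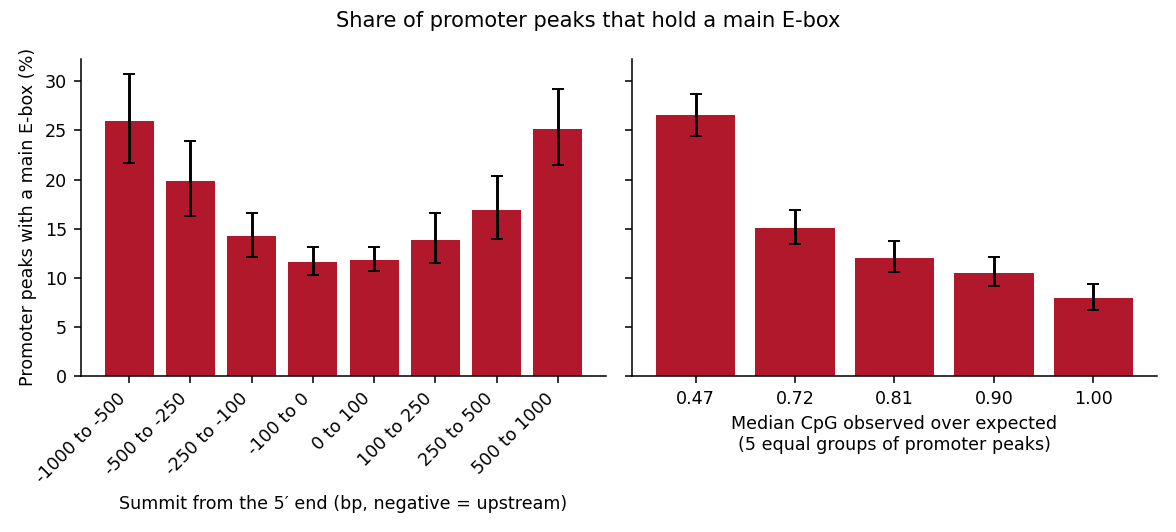
Percentage of promoter peaks with a main E-box by distance of the summit from the 5′ end in bp (left) and by the median CpG observed over expected ratio of 5 equal groups (right), with 95% Wilson intervals as bars. The share was 25.98% from 1000 to 500 bp upstream, 11.7% within 100 bp upstream and 25.2% from 500 to 1000 bp downstream; across the CpG groups it was 26.5%, 15.1%, 12.0%, 10.5% and 7.92%.

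Side of the gene start did not separate the members. The summit lay upstream in 45.9% of members and 44.8% of promoter peaks without, a difference of 1.06 points (-2.01 to 4.16). Summits within introns made up 17.5% of members and 9.16% of promoter peaks without, and untranslated exons 35.9% and 44.9%. Divergent promoters, where genes on opposite strands start within 1 kb of each other, were found at 7.29% of members and 9.13% of promoter peaks without, a difference of -1.84 points (-3.37 to -0.0811). All groups had a median peak width of 370 bp.

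Members had a slightly lower median strength of binding than other promoter peaks, and the 50 strongest of them lay mostly at CpG-poor promoters. Strength is the signal value of the authors' peak caller, whose scaling is not stated, so it ranks peaks within a list only. The members had a median of 59.3 (56.2 to 61.9), from 30.03 to 948, against 62.7 (61.6 to 63.8) in promoter peaks without, which ran from 30.02 to 2749.9. The log2 ratio of medians was -0.08 (-0.16 to -0.01), and 0.02 when only peaks above the list's median signal were used. Averaged within 5 equal groups by CpG ratio it was -0.03. Of the members 22.04% lay in the strongest 20% of the whole list, against 22.2% of promoter peaks without, the background being 22.2% over all promoter peaks.

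Among CpG-poor promoters the peaks with a main E-box had more of the high values. In the strongest 20% of the list were 23.99% of the 371 CpG-poor members and 14.4% of the 973 CpG-poor promoter peaks without, a difference of 9.60 points (4.91 to 14.6). A signal of 200 or more, reached by 3.72% of all promoter peaks, was found in 8.36% and 2.57% of those groups, a difference of 5.79 points (3.10 to 9.15). Their medians, 52.7 (47.6 to 59.3) in CpG-poor members and 51.0 (49.0 to 53.1) in CpG-poor promoter peaks without, had overlapping intervals. Among CpG-rich promoters, 21.1% of the 795 members and 23.5% of the 5946 peaks without lay in the strongest 20%, a difference of -2.38 points (-5.29 to 0.777). Of the 50 strongest CpG-poor promoter peaks 28 held a main E-box, beside 27.6% of all 1344, and of the 50 strongest CpG-rich ones 3 did, beside 11.8% of all 6741. Over 5 equal groups of CpG-poor promoter peaks by rising signal the share was 29.4%, 27.1%, 20.1%, 24.5% and 36.8%, so it was highest in the strongest group without a steady rise. CpG-poor peaks away from promoters had a like contrast, with 25.9% of those with a main E-box and 14.2% of those without in the strongest 20%, and 9.10% and 3.13% at a signal of 200 or more.

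Replicate signals on mm10 showed the same split in each sample. Members were tied to mm10 peaks through the RefSeq promoter sequence of their gene: where its 300 bases were found once near the mm9 summit, the optimal mm10 peak with its summit within 50 bp of the same distance from that sequence was taken. Of 909 members anchored in this way 818 (90.0%) had such a peak, against 4742 of 5467 promoter peaks without (86.7%), the background being 87.2% over both. Of the 243 matched CpG-poor members, 24.3% lay in the strongest 20% of matched promoter peaks by pooled signal, against 13.4% of CpG-poor peaks without. In replicate 1 the shares were 21.9% and 14.1%, a difference of 7.84 points (2.19 to 14.0), and in replicate 2 they were 19.2% and 11.6%, a difference of 7.59 points (2.28 to 13.5). For CpG-rich promoters the differences were -3.08 points (-6.26 to 0.485) in replicate 1 and -3.98 points (-7.15 to -0.436) in replicate 2.

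**Figure D3:**
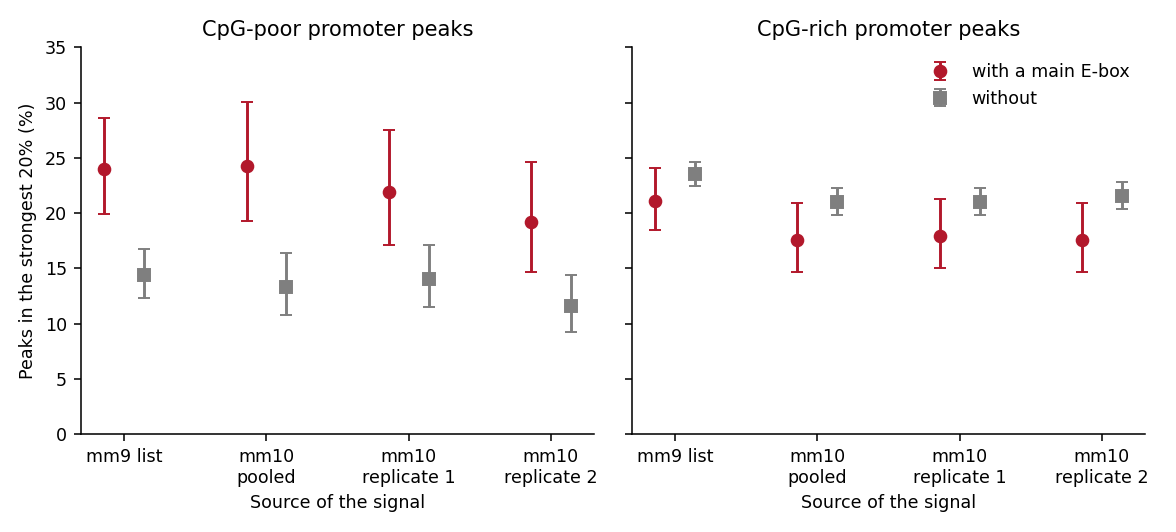
Percentage of promoter peaks in the strongest 20%, with 95% Wilson intervals, for CpG-poor (left) and CpG-rich promoters (right); circles are peaks with a main E-box and squares promoter peaks without. The 20% are those of the whole list for mm9 and those of matched promoter peaks for the mm10 signals, and at CpG-poor promoters the circle stands above the square in all 4 sources.

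Medians over all matched members differed little from those of other promoter peaks, and the replicates did not give the same sign of difference by gene. Replicate 1 had a median signal of 36.8 in matched members and 37.1 in matched promoter peaks without, a log2 ratio of -0.01 (-0.10 to 0.04). Replicate 2 had 21.8 and 24.7, a log2 ratio of -0.18 (-0.27 to -0.10). Taken by gene instead, with the strongest optimal peak within 1 kb of the RefSeq start, 991 of 1096 member genes had a peak (90.4%), beside a background of 89.9%. RefSeq and GENCODE starts differ for some genes and a gene can have several peaks, so this value may come from another peak than the member: in 62.5% of the 991 the mm10 summit lay within 100 bp of the member's distance from the start. The log2 ratio there was -0.04 (-0.10 to 0.01) pooled, 0.03 (-0.03 to 0.08) in replicate 1 and -0.12 (-0.20 to -0.06) in replicate 2. Nearly every matched member, 812 of 818 (99.3%), overlapped a relaxed peak in both replicates, as did 99.5% of matched promoter peaks without. The optimal list was itself made from relaxed peaks and an overlap of 1 bp sufficed, so these shares were largely set by the matching. Replicate values were those of the overlapping relaxed peaks, which neighbouring members can share. Both matched members at Arhgap30 had the same pair of replicate values, as did those at Ado, Ksr2 and Wdr41. At Ippk and Sart1 each replicate value was above the pooled one, so a replicate value may not be that of the member alone. The signal was higher in replicate 1 in 88.4% of those members and in 84.5% of matched promoter peaks without; the depth behind each replicate is unknown.

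**Figure D4:**
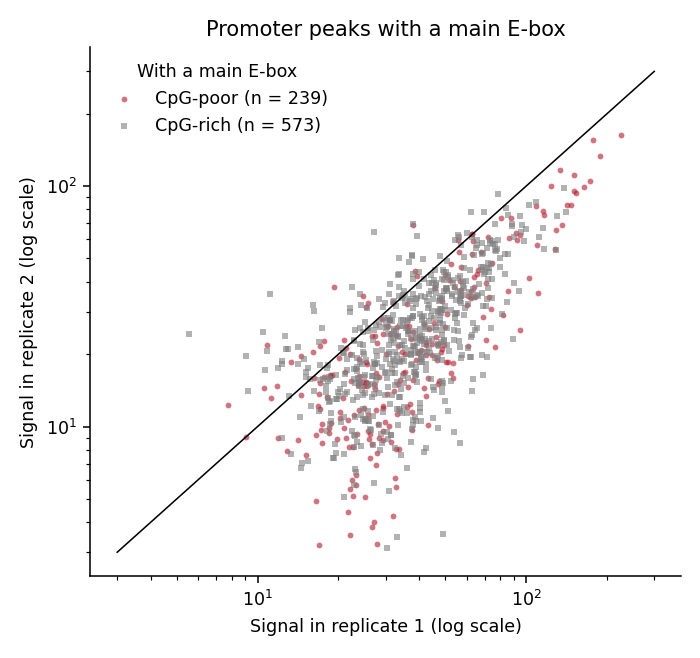
Signal of matched promoter peaks with a main E-box in replicate 1 (x axis) and replicate 2 (y axis), both on log scales, with CpG-poor members as circles (n = 239) and CpG-rich members as squares (n = 573); the line marks equal values. Most points lie below the line, and Spearman's rho across these 812 peaks, which share both libraries, was 0.690. Values are those of the overlapping relaxed peaks, and some neighbouring members repeat the same pair, so not all points are separate measurements.

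Composition by kind of E-box also set promoter members apart from peaks elsewhere. Of the members 552 held only CAGCTG (47.3%), 561 only CACCTG (48.1%) and 53 both (4.55%), against 36.5%, 50.5% and 13.0% of the 6136 peaks elsewhere with a main E-box. The share with both kinds was lower by 8.48 points in members (difference -8.48, -9.84 to -6.90). Members with both kinds had a median signal of 78.2 (62.5 to 116), against 61.5 (57.2 to 65.7) with CAGCTG only and 55.8 (52.0 to 59.6) with CACCTG only. Of the members with both kinds 52.8% were CpG-poor, against 26.4% with CAGCTG only and 35.1% with CACCTG only, and the part of this in the signal difference was not tested. Sites numbered 1310 in all, 646 of CAGCTG and 664 of CACCTG.

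A single site was the rule. Of the members 1046 had 1 main E-box, 103 had 2, 13 had 3, 3 had 4 and 1 had 7, so 10.3% had more than 1, against 23.5% of peaks elsewhere with a main E-box. Krtap1-4, a hair keratin associated protein gene, was the member with 7, at a signal of 35.6. Tbc1d8, which encodes a TBC-domain protein of membrane traffic, had 4 at a signal of 245, and Cbfa2t3 had 4 in 1 of its 2 members, at 118. Members with more than 1 site lay in the strongest 20% in 25%, against 21.7% with 1, a difference of 3.30 points whose interval spans 0 (-4.07 to 12.1).

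Sites were close to evenly spread over the window. With even placement 31.25% of sites would be centred within 15 bp of the summit, and 32.5% of member sites were (30.04 to 35.1). In CpG-poor members 36.4% were (32.1 to 40.9), in CpG-rich members 30.5% (27.5 to 33.7), and in peaks elsewhere 35.1% (34.1 to 36.2). The hexamer CACCTG read in the direction of the gene at 42.6% of its 664 sites (38.9 to 46.4), so CAGGTG was on the gene's strand more often. It did so at 39.0% downstream of the 5′ end (34.1 to 44.2) and 46.6% upstream (41.2 to 52.2), and at 46.2% in the flanks of promoter peaks (43.5 to 48.9).

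Bases beside CAGCTG differed from those of the flanks and from those of peaks elsewhere. The octamer ACAGCTGC made up 15.3% of member CAGCTG sites, 9.58% of those in promoter flanks and 20.9% of those in peaks elsewhere, with differences of 5.74 points (2.27 to 9.29) and -5.58 points (-8.49 to -2.33). GCAGCTGC made up 19.3%, 14.2% and 10.6%, so it was above both. CCAGCTGC, the most common at members, made up 25.4%, 21.2% and 16.4%. It was above peaks elsewhere by 8.99 points (5.55 to 12.7), while its interval against the flanks spanned 0 (-0.250 to 8.67). At CpG-rich members GCAGCTGC stood at 22.3% (18.7 to 26.4) and at CpG-poor members at 12.4% (8.50 to 17.8). For CACCTG, GCACCTGC made up 14.6% of member sites, 9.25% of flank sites and 11.0% of sites elsewhere. Octamers with T before CACCTG were all rarer at member sites than in flanks. TCACCTGG made up 4.52% against 7.93%, and TCACCTGT 1.66% against 4.59%. For TCACCTGC and TCACCTGA the interval of the difference spanned 0. The part of these sites in the CACCTG ratios over the flanks was not tested.

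Motifs of 4 promoter factors were rarer at members than at promoter peaks without a main E-box. Each of these motifs contains a CpG, and members were more often CpG-poor. The ETS motif CCGGAAGT was in 4.63% of member windows and 7.24% of windows without, a difference of -2.61 points (-3.85 to -1.13). NRF1 was in 4.20% and 6.40%, a difference of -2.20 points (-3.38 to -0.778). YY1 (AANATGGCG) was in 4.80% and 6.46%, a difference of -1.66 points (-2.90 to -0.168). CREB (TGACGTCA) was in 1.20% and 2.07%, a difference of -0.866 points whose interval comes close to 0 (-1.47 to -0.00396). In windows on all protein-coding 5′ ends these 4 motifs stood at 3.12%, 3.51%, 2.08% and 1.28%, in the same order. In the flanks of members they stood at 0.343%, 0.772%, 0.643% and 0.3002%, so all 4 were more frequent at member summits than beside them. Flanks of promoter peaks without had 0.556%, 0.939%, 0.679% and 0.2096%. Averaged within 5 equal groups by CpG ratio, the differences between members and promoter peaks without were -2.09 for ETS, -0.589 for NRF1, -0.681 for YY1 and -0.532 for CREB. AP-1 (TGANTCA) was the other way, in 3.002% of members and 1.50% of promoter peaks without, a difference of 1.50 points (0.606 to 2.67), beside 1.95% of all 5′ ends. That difference was 0.947 within the CpG groups and 0.898 when matches overlapping a main E-box were left out, and the shares were 2.26% against 0.942% at CpG-rich promoters and 4.58% against 4.93% at CpG-poor ones.

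The intervals of the other 21 of 26 motifs spanned 0. No interval was adjusted for the number of motifs. Of those, 8 were E-boxes with other centres, among them CACGTG, the site of MYC and USF factors, in 5.40% of members and 4.93% of promoter peaks without. The rest were PU.1 (GAGGAAGT), SP/KLF (CCCCGCCCC), NFY (CCAAT after A or G), E2F (TTTCCCGC or TTTGGCGC), ZBTB33, ZNF143, EBF1, OCT (ATGCAAAT), NF-kappaB, RUNX (TGTGGTTT), the core promoter box TATAAA, the hexamer AGATAA bound by GATA factors and, as a control, the palindrome CGATCG, for which no factor was intended. Motifs of 10 or more letters are given by name, and both strands were searched. A match names letters only, not a bound factor.

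**Figure D5:**
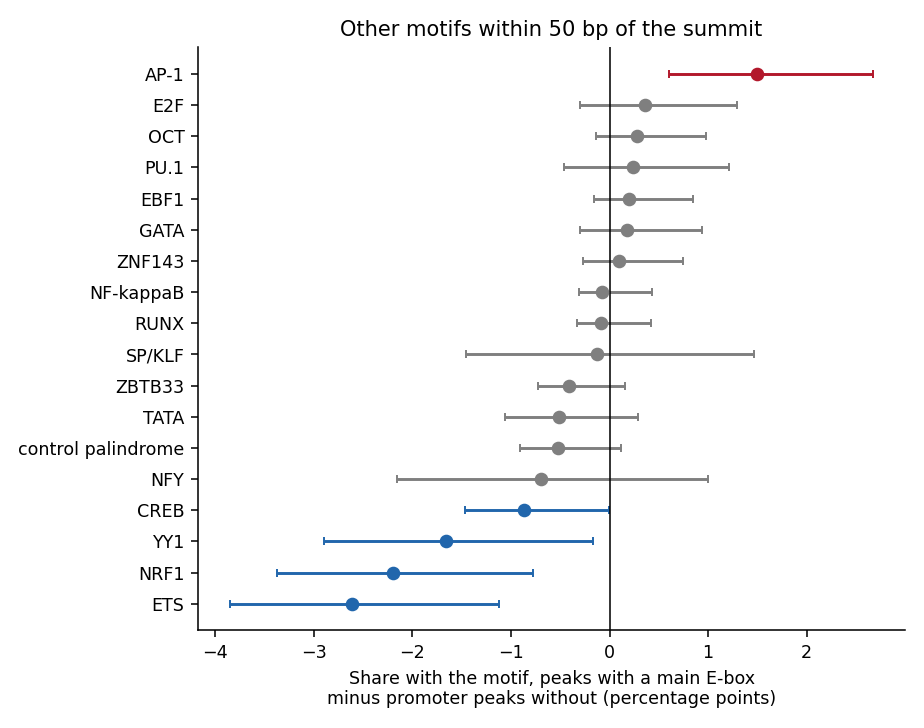
Difference in the share of peaks with each motif, members minus promoter peaks without, in percentage points with 95% Newcombe intervals, for the 18 motifs that are not E-boxes. ETS, NRF1, YY1 and CREB lie below 0, AP-1 lies above it, and the intervals of the others span 0.

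The 50 strongest members lay mostly at CpG-poor promoters and away from the start base. Of the 15 strongest, 13 were CpG-poor and 3 had their summit within 100 bp of the 5′ end, and 8 held CACCTG only, 4 CAGCTG only and 3 both. Of the 50 strongest, 30 were CpG-poor, against 6 of the 50 strongest promoter peaks without, and 18 lay within 100 bp, against 37. Mzb1, annotated as 2010001M09Rik on mm9 chromosome 18 from 35807965 to 35808378, encodes a chaperone for antibody secretion in B cells. Its intronic peak had the highest signal of all members, 948, with 1 site of each kind, 848 bp downstream of the 5′ end. No mm10 match was made for this peak. The RefSeq start of the gene differs from the GENCODE start, and its place among promoter peaks rests on the GENCODE start.

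Replicate values of the other leading peaks were high in both samples. These peaks were chosen by the signal of both replicates together, which favours high values in each. The peak in Gm7873 had a signal of 717 on mm9, with 225 in replicate 1 and 163 in replicate 2. Psmc3ip, a cofactor of meiotic recombination, had 709.8 with 177 and 155, 532 bp upstream of the 5′ end. Dmpk, the kinase gene of myotonic dystrophy, had 579 with 188 and 133, 718 bp into the gene. All 3 of these were higher in replicate 1. Fam129c, whose product was described in B cells, had peaks of 580.3 (173 and 105 in replicates 1 and 2) and 369 (151 and 95.1), 27 and 661 bp upstream. Both lie within Pgls, so the assignment to either gene rests on distance alone.

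CpG-rich promoters gave 2 of the 15. Lrp6, a coreceptor of Wnt signalling, had a signal of 550.1 with a CpG ratio of 1.16, and Msh6, a DNA mismatch repair gene, had 347 (139 in replicate 1 and 98.1 in replicate 2) with a ratio of 0.837. At Msh6 the E-box began 1 base before the summit. Atad1, an ATPase of the mitochondrial outer membrane, had 436 (134 and 117 in replicates 1 and 2). Wnt10a, a Wnt ligand gene, had 433, and Rinl, which encodes a RAB exchange factor, had 412 (154 and 93.5 in replicates 1 and 2). Immune genes followed: Tlr9, the endosomal sensor of bacterial DNA, had 367 (142 and 83.8), and Cd80, a costimulatory ligand, had 364 (151 and 111). Il4, the cytokine of type 2 help and class switching, had 348 (164 and 99.5), and A930003A15Rik had 360.4. For the 11 of these 15 with a match, replicate 1 was at least 134 and replicate 2 at most 163, and replicate 1 was the higher in all 11.

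By gene, 1122 of 7070 genes with a promoter peak had a member, a background of 15.9%, and 43 had more than 1. In the list of B cell identity and receptor genes, 22 of 31 had a promoter peak and 7 of those a member, or 31.8% (16.4 to 52.7). They were Cd79a, a signalling chain of the B cell receptor, the kinase Syk (Sykb in the annotation), its effector Plcg2, the complement receptor Cr2, Ms4a1 (CD20), the octamer coactivator Pou2af1 and the ETS factor Spib. Cd79a had a signal of 176, with 111 in replicate 1 and 36.0 in replicate 2. Pou2af1 had 142 (85.3 and 36.7), and Spib had 141 (73.8 and 30.7). All 3 lay at CpG-poor promoters, with CpG ratios of 0.347, 0.479 and 0.0727, and all were over 2-fold higher in replicate 1.

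Genes of B cell activation and the germinal centre had a member in 4 of 19 with a promoter peak, of 27 listed: Cd40, Cd80, Icosl and Nfkbie. The NF-kappaB inhibitor gene Nfkbie had 95.9 (49.8 in replicate 1 and 30.5 in replicate 2), and Icosl, the ligand of ICOS on T cells, had 63.7 (42.3 and 18.3). Plasma cell genes had 2 of 10, Mzb1 and Ell2, an elongation factor used for secreted antibody, at 168 (78.5 and 60.0). E proteins, ID proteins and their partners had 2 of 13. Cbfa2t3, an ETO-family corepressor that E proteins bind, had members of 169 and 118, and Bhlhe40, a repressor of the same fold, had 45.4. No E protein or ID gene itself was among them. In this list the share with a member was 15.4%, but 7.69% with promoters of 500 bp and 38.5% with promoters of 2 kb.

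Among genes of other lineages, 2 of 22 T cell genes and 3 of 25 muscle and neuronal genes had a promoter peak, beside 31.8% of all protein-coding genes. The peaks of both T cell genes were members. Cd5, which B-1 cells also express, had a signal of 55.2 (43.2 in replicate 1 and 10.2 in replicate 2). Cd3g, a chain of the T cell receptor complex, had 30.9, close to the lower end of the list, with 21.4 in replicate 1 and no overlapping relaxed peak in replicate 2. Of the 3 muscle and neuronal genes 2 had a member. Tnni2, a fast muscle troponin, had 150.2 and Dll3, a Notch ligand, 77.6. These counts are too small to set against the background, and with promoters of 2 kb the shares with a member were 60% and 50%.

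In the lists of growth and survival genes the interval of the share held the background of 15.9%. DNA replication genes had 7 of 30 (Cdc6, Mcm2, Mcm5, Mcm6, Orc1, Pola2 and Pold1), led by the polymerase Pold1 at 216 (110 in replicate 1 and 56.7 in replicate 2). Cell-cycle genes had 5 of 16 (Ccnb1, Ccne2, Cdk2, Cdk4 and E2f3), led by the transcription factor E2f3 at 160 (62.5 and 77.8), higher in replicate 2. BCL2 family genes had 3 of 12. The death inducers Bcl2l11 (BIM) and Bbc3 (PUMA) had 279 (131 and 75.2) and 104 (64.7 and 25.2), and the survival gene Bcl2a1a had 50.6, a gene with near-identical copies among which the counting could split reads. Histone modifier genes had 3 of 30. They were the methyltransferases Ehmt1 at 209 (117 and 54.5) and Suv39h2 at 98.9 (65.6 and 35.3), and the demethylase Kdm4a at 31.7.

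Cytoplasmic ribosomal protein genes had 3 of 66 with a promoter peak, or 4.55% (1.56 to 12.5), an interval below the 15.9% of all genes with a promoter peak. They were Rplp1 at 140.5, Rplp2 at 36.5 and Rps3a at 34.0, the last 815 bp upstream of the 5′ end. Mitochondrial ribosomal protein genes had 7 of 57, led by Mrpl55 at 216, Mrps18a at 189.6 and Mrpl9 at 167. Complex I genes had 2 of 28, Ndufb10 at 94.4 and Ndufa8 at 52.5. Proteasome genes had 5 of 39, led by Psmd2 at 209, Psmd3 at 205 and the assembly chaperone gene Psmg4 at 74.0. Translation initiation genes had 5 of 43, led by Eif4g2 at 112, Eif2d at 96.9 and Eif4ebp1 at 70.2. The intervals of these last 4 lists held the background. RAB and lysosome genes had 6 of 26, or 23.1% (11.0 to 42.1), led by Rab21 at 159.7, Rab22a at 116 and Rab5b at 77.6.

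At the edge of the window, the members whose E-box reached exactly 50 bp from the summit included Ube2g1 (signal 104), Ppwd1 (104) and Prpf8 (88.3). Promoter peaks whose nearest main E-box reached 51 bp, and so were left out, included Tnfrsf8 (342), Adck3 (288) and Ranbp3 (239).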

How the data were processed

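Per the deposited file descriptions, the authors called relaxed peaks on each replicate and on the pool with a control alignment, and an irreproducible discovery rate (IDR) step gave the optimal and conservative mm10 lists. The mm9 list came from the alignments of both replicates. The sources used here name no aligner, caller or version. The deposited signal is the caller's value per peak, with no stated scaling, and the deposited score is a scaled IDR score, at most 1000. Read depth is unknown. No count of reads was available for a test.

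From the mm9 list, 3 of 23575 peaks lay outside chromosomes 1 to 19 and X and were left out. Sequence and annotation were NCBIM37 and GENCODE vM1, read with pysam 0.24.0 in Python 3.11.15. Promoter sequences were those of RefSeq on GRCm38.p6, found once within 5 kb of the summit, and no coordinate was converted. Shares have Wilson intervals, differences Newcombe intervals and medians order-statistic intervals, each tested on simulated data. Ratios of shares have log intervals, which were not tested in this way. No p-value was computed, because peaks of 1 list are not replicates.

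Members, gene lists, motifs and settings were chosen with earlier results of these data known. The 16 gene lists hold 630 genes. Named are the 15 strongest members, up to 3 genes per list by signal, the 3 members with the most sites and the 3 on either side of the window limit. Other list genes with a member are named without values. The matching by promoter sequence, the CpG groups and the 50 strongest peaks of a class were chosen after the values were seen. Alternatives were other windows, promoter distances, starts and thresholds.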

Additional observations from a re-analysis of the deposited data

How the results depend on the processing

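The share of promoter peaks with a main E-box was 7.61% with 25 bp and 25.2% with 100 bp to either side of the summit, 13.1% and 15.9% with promoters of 500 bp and 2 kb, 13.6% with only peaks above the list's median signal and 16.2% with all transcript starts. The log2 ratio of median signal, -0.08, became 0.0246 above that median. The difference in median CpG ratio, -0.0971, was -0.0790 with 100 bp windows, -0.0715 with 500 bp promoters and -0.137 with 2 kb promoters. The difference in the share within 100 bp of the 5′ end was -16.1 points with 25 bp windows, -7.71 and -16.2 with 500 bp and 2 kb promoters, and -7.55 within CpG groups, an alternative chosen after seeing the data. The share with CAGCTG only was 41.7% with 100 bp windows. Leaving out a replicate gave log2 ratios by gene from -0.12 to 0.0301, and the share of member genes with peaks in both replicates was 89.1% when an overlap of 50% of both peaks was required. The causes were not tested. The other 44 values of this kind lay within the interval of the main value, though some moved within it. The upstream difference of 1.06 points was -0.297 within CpG groups and 0.191 with 100 bp windows, the CACCTG ratio of 0.991 was 1.04 with flanks 500 bp away, and the log2 signal ratio was -0.03 within CpG groups. No paired analysis was possible because both replicates belong to 1 group. Depth is unknown and limits every signal.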
